A study of Mus musculus with 8 samples.

Results

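Necroptosis and death receptor signalling was followed through the mRNA of 9 genes: Ripk1, Ripk3, Mlkl, Zbp1, Casp8, Cflar, Birc2, Birc3 and Fadd. The genes were fixed by name and found in the count table by the Ensembl identifier that carries each symbol in GENCODE vM21. All 9 were among the 52636 identifiers of the table, and all 9 were among the 13847 genes with enough counts to be tested. The cells were primary microglia, the resident macrophages of the brain, from mice labelled C57BL/6 (C57BL/6N pups in the study's methods) of WT genotype. They had been shaken off mixed glial cultures of neonatal brains and kept in DMEM with 10% FBS and with CSF-1, a growth factor that keeps microglia alive, at 10 ng/ml, so that both groups were cultured cells under CSF-1. One group received 5 µg/ml LPS, the bacterial lipopolysaccharide sensed by Tlr4, and the other received vehicle, both for 24 h, with 4 libraries in each group and bulk RNA-seq as the only readout used here.

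When a death receptor such as the TNF receptor is engaged, a complex forms around the kinase RIPK1, and the ubiquitin ligases cIAP1 (Birc2) and cIAP2 (Birc3) tag that kinase so that the cell signals for survival and cytokine production. If tagging fails, the adaptor FADD brings RIPK1 to caspase-8 (Casp8), which starts apoptosis as a homodimer but, paired with the inactive caspase homologue cFLIP (Cflar), cleaves RIPK1 and RIPK3 and keeps the cell alive. Where caspase-8 is blocked, RIPK3 phosphorylates the pseudokinase MLKL, which perforates the plasma membrane in the lytic death called necroptosis. RIPK3 can be reached from RIPK1, from the Toll-like receptor adaptor TRIF (Ticam1) or from ZBP1, a sensor of Z-form nucleic acids, all through a shared stretch of amino acids, the RHIM. In macrophages and microglia, Toll-like receptor stimulation with caspases inhibited is a standard way to bring on necroptosis. mRNA levels do not report phosphorylation, cleavage or death, none of which was measured here.

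The promoters of 4 members are shown, whose mRNAs responded differently as described below: Mlkl rose the most, Ripk3 and Cflar rose strongly, and Ripk1 did not pass the test. Fadd, the only member called lower by TMM, is not among them. Every member window with a motif match is among those shown. Each window runs from 250 bases before to 50 bases after the start of transcription (RefSeq, GRCm38.p6), is read 5′ to 3′ on the strand of the gene, and has in capitals any match to the searched motifs. The Mlkl window lies at chr8:111338156-111338455 on the minus strand, the Ripk3 window at chr14:55788808-55789107 on the minus strand, the Cflar window at chr1:58711241-58711540 on the plus strand, and the second of 2 Ripk1 windows at chr13:34002624-34002923 on the plus strand.
Mlkl: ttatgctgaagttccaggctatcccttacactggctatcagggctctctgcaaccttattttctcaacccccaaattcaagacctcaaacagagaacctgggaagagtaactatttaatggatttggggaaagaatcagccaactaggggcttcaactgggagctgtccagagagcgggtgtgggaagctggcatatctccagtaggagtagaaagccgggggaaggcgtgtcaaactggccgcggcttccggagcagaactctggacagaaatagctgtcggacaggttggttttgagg
Ripk3: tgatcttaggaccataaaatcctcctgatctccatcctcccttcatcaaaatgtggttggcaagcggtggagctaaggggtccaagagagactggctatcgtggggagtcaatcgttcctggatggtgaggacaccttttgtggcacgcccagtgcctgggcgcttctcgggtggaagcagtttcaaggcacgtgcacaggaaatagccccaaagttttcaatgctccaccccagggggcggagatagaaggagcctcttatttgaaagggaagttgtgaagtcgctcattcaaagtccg
Cflar: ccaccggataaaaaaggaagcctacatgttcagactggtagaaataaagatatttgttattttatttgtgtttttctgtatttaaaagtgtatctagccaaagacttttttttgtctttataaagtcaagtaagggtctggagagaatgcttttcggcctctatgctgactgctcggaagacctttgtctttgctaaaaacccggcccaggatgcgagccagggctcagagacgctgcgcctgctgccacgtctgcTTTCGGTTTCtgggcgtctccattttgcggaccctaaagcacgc
Ripk1: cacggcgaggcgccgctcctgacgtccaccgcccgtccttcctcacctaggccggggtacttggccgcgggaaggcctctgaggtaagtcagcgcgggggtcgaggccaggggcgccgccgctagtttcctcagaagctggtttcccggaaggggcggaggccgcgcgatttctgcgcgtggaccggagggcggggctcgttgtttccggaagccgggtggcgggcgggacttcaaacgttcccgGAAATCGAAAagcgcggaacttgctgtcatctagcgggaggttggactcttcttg

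Windows were on hand for 8 of the 9 members, 10 windows in all, and none for Zbp1. The letters searched on both strands were the NF-κB motif (GGGNNTTTCC or GGGNNTTCCC) and the interferon-stimulated response element or ISRE (TTTCNNTTTC), which 3.24% and 3.44% of all 32851 windows of this length held. The Cflar window held an ISRE, TTTCGGTTTC, whose first base is base 7 counted from the start site. The second Ripk1 window held an ISRE on the other strand, GAAATCGAAA, whose first base is at -5 from the start site of that window. That window lies inside the gene as annotated in GENCODE, which starts at 34002363. The other Ripk1 window (chr13:34002113-34002412, plus strand) spans the annotated start. Neither motif was matched in the other Ripk1 window, for which reason it is not shown, or in the windows of Mlkl, Ripk3, Casp8, Birc2, Birc3 or Fadd. The Casp8 window (chr1:58802252-58802551, plus strand) lies inside the gene as annotated in GENCODE, which starts at 58795374. The sequence around that start was not searched. A match describes letters only, and binding was not measured.

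Library totals ranged from 20071921 to 30604447 counts. The scaling of the libraries bears on small changes, because the TMM factors (edgeR's correction for RNA composition) lay between 1.21 and 1.32 in vehicle and between 0.70 and 0.83 in LPS. Without them, on library totals alone, the median log2 fold change of all tested genes moved from -0.11 to -0.79, a shift of -0.68. The all-gene split moved with it, from 4191 genes higher and 4686 lower to 1988 higher and 8457 lower. The 10 microglial markers were all detected, and their summed level in CPM (counts scaled to a common library size, here after TMM) lay between 9778 and 11529 in vehicle and between 2614 and 3068 in LPS, with 8 markers lower and 1, Itgam, higher. Of the markers of other cell types, 3 of 10 endothelial genes, of which 4 had enough counts to test, were higher (Pecam1, Flt1 and Cdh5) and 1 was lower (31.8 to 74.7 CPM summed in vehicle, 164 to 255 in LPS), with Cldn5, Tek, Ly6c1 and Esam at or under 3 counts. Among 10 astrocyte genes (8 tested, Gjb6 at or under 3 counts) 1 was higher and 3 lower (20.6 to 47.7 against 41.4 to 124 CPM). The higher one, Gja1, held 0.64 to 1.07 CPM in vehicle and 28.9 to 98.1 CPM in LPS, most of the LPS sum. The 10 oligodendrocyte precursor genes (7 tested, Neu4 at or under 3 counts) had 1 higher and 3 lower (27.5 to 142 against 63.8 to 139 CPM). The higher one, Vcan, held 5.52 to 21.8 CPM in vehicle and 37.2 to 104 CPM in LPS, most of the LPS sum. The 10 oligodendrocyte genes (4 tested) had 1 higher and 1 lower (150 to 205 against 188 to 238 CPM), with Mobp, Ermn and Opalin at or under 3 counts. None of 10 neuronal genes (7 tested) was higher and 5 were lower (14.8 to 50.6 against 5.27 to 22.9 CPM), and 1 of 10 fibroblast and mural genes (4 tested, Rgs5 and Kcnj8 at or under 3 counts) was higher (5.80 to 20.8 against 10.5 to 25.1 CPM). That gene, Dcn, held 0.0355 to 0.245 CPM in vehicle and 4.71 to 19.4 CPM in LPS. The share of mitochondrial counts was 0.400% to 0.518% in vehicle and 0.114% to 0.237% in LPS. The part of any of these in the results below was not tested.

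LPS raised 7 of the 9 mRNAs and lowered 1 by the TMM scaling, and raised 6 and lowered 2 on library totals alone. Mlkl, Cflar, Ripk3, Birc3, Zbp1 and Casp8 rose by 3.94 to 17.2 times, Birc2 rose slightly by TMM but not on library totals, and Fadd fell slightly, while Ripk1, the kinase at the hub of the pathway, did not pass the test. The median log2 fold change of the 9 was 2.14, beside -0.11 over all tested genes. Of all tested genes 30.3% were higher and 33.8% were lower at an adjusted p under 0.05 (edgeR's quasi-likelihood test, Benjamini-Hochberg over all genes), so the response was broad. In 7 members every LPS library lay above every vehicle library, as in 28.7% of all tested genes, and in 1, Fadd, every LPS library lay below, as in 31.5%. In bulk RNA, a change in the number of cells that make an mRNA cannot be told apart from a change in the mRNA per cell.

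**Figure D1:**
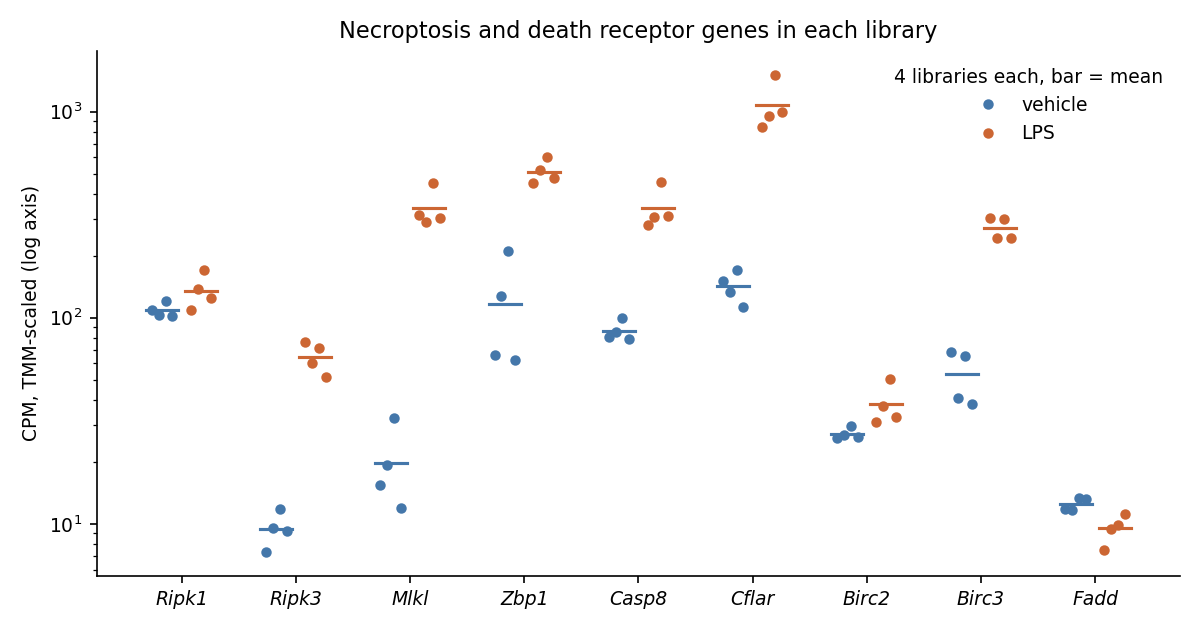
The mRNA level of each of the 9 genes in each library is plotted in CPM (TMM-scaled, log axis), with 4 vehicle and 4 LPS points per gene and a bar at each group mean. The groups are separated for every gene except Ripk1, where LPS replicate 1 (109 CPM) lies among the vehicle libraries (102 to 121 CPM). On library totals alone the LPS levels of Ripk1 and Birc2 shift to below vehicle on average.

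Among the RHIM proteins and their target, the executioner Mlkl (ENSMUSG00000012519, chr8:111311797-111338177, minus strand) changed the most. Its level was 15.5, 19.2, 32.6 and 11.9 CPM in vehicle replicates 1 to 4 and 316, 293, 450 and 305 CPM in LPS replicates 1 to 4. The lowest LPS library stood far above the highest vehicle library, and replicate 3 was the highest library in both groups. The means were 19.8 ± 9.04 and 341 ± 73.5 CPM (SD, n = 4 each), and the fitted log2 fold change was 4.10 (SE 0.32, adjusted p = 4.84e-06 by edgeR), that is 17.2-fold with a 95% interval of 10.4 to 28.4.

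Ripk3 (ENSMUSG00000022221, chr14:55784995-55788865, minus strand), the kinase that phosphorylates MLKL, was low in vehicle, at 7.32, 9.55, 11.9 and 9.23 CPM. After LPS it stood at 76.1, 60.2, 71.2 and 51.3 CPM, with no overlap between the groups. The means were 9.49 ± 1.86 and 64.7 ± 11.1 CPM (SD, n = 4 each), and the log2 fold change was 2.77 (SE 0.18, adjusted p = 1.5e-06 by edgeR). In its percentile among the per-length levels of tested genes (CPM per kilobase of exon, group means), Ripk3 moved from 52.8 to 87.9.

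Zbp1 (ENSMUSG00000027514, chr2:173206612-173218923, minus strand), the nucleic acid sensor, stood at the 92.8th percentile of per-length levels in vehicle and varied widely there, at 65.9, 128, 210 and 62.4 CPM. The LPS libraries held 449, 521, 603 and 475 CPM, all above the highest vehicle library. The coefficient of variation was 59.3% in vehicle and 13.2% in LPS. The means were 116 ± 69.0 and 512 ± 67.7 CPM (SD, n = 4 each), and the log2 fold change was 2.14 (SE 0.37, adjusted p = 0.000663 by edgeR). Vehicle replicate 3 weighed most on this value, which was 2.64 without it.

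Ripk1 (ENSMUSG00000021408, chr13:34002363-34037147, plus strand) held 109, 104, 121 and 102 CPM in vehicle and 109, 137, 170 and 125 CPM in LPS. The groups overlapped, since LPS replicate 1 lay among the vehicle libraries while the other LPS libraries stood above every vehicle library. The log2 fold change was 0.31 (SE 0.14, 95% interval -0.00 to 0.63, adjusted p = 0.0746 by edgeR). The call for Ripk1 depended on the scaling: with DESeq2's size factors it passed the threshold at 0.36 (adjusted p = 0.0491), and on library totals alone it turned to -0.37 (adjusted p = 0.00807). It also passed without vehicle replicate 3 (0.42, adjusted p = 0.0245) and without LPS replicate 1 (0.41, adjusted p = 0.0217). Measured from the median of all tested genes, Ripk1 lay at 0.42 by TMM and 0.41 by totals. Of its exons, 6.12% of bases overlap Gm17084 on the same strand and 2.89% overlap Serpinb6a on the opposite strand, a gene that fell (-0.72, adjusted p = 0.00608 by edgeR).

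In the caspase arm, Cflar and Casp8 rose together and Fadd did not. Cflar (ENSMUSG00000026031, chr1:58711508-58758884, plus strand), which encodes the brake cFLIP, went from 151, 133, 170 and 113 CPM in vehicle to 846, 955, 1511 and 996 CPM in LPS. No library of one group came near the other group, and replicate 3 was again the highest in both. The means were 142 ± 24.7 and 1077 ± 296 CPM (SD, n = 4 each), and the log2 fold change was 2.92 (SE 0.22, adjusted p = 3.63e-06 by edgeR). Of the 50-base stretches of its transcripts, 7.36% also occur in other genes, of which Gm9845, Mgea5 and Gm48704 share the most. Reads from such stretches could be left out of the counts, which hold uniquely aligned reads.

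Casp8 (ENSMUSG00000026029, chr1:58795374-58847503, plus strand), the initiator protease that both starts apoptosis and restrains necroptosis, held 80.6, 84.8, 100.1 and 79.2 CPM in vehicle. It held 281, 307, 456 and 312 CPM in LPS, so the groups were separate. The means were 86.2 ± 9.59 and 339 ± 79.4 CPM (SD, n = 4 each), with a log2 fold change of 1.98 (SE 0.17, adjusted p = 8.42e-06 by edgeR). Of its 50-base stretches, 4.37% also occur in Gm20257, which rose as well (1.33, adjusted p = 0.0109 by edgeR). Casp8 and Cflar are related genes that lie 36489 bases apart on chromosome 1 in the same orientation. Trak2, the next tested gene beyond Casp8, gave 0.09 (adjusted p = 0.473 by edgeR) and was looked up after the values were seen.

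Fadd (ENSMUSG00000031077, chr7:144577318-144582463, minus strand), the adaptor between death receptors and caspase-8, was the only member called lower by TMM. Its level was 11.9, 11.7, 13.4 and 13.1 CPM in vehicle and 7.48, 9.42, 9.89 and 11.2 CPM in LPS, every LPS library below every vehicle library but by a narrow margin. The means were 12.5 ± 0.86 and 9.50 ± 1.54 CPM (SD, n = 4 each), with a log2 fold change of -0.40 (SE 0.14, 95% interval -0.72 to -0.08, adjusted p = 0.0341 by edgeR). The call was lost with DESeq2 (-0.35, adjusted p = 0.0695), with its size factors in edgeR (-0.35, adjusted p = 0.0633) and with no filter on low counts (-0.43, adjusted p = 0.0522). It was also lost without any 1 of the 4 vehicle libraries, replicates 1 to 4 in turn (adjusted p = 0.0598, 0.0572, 0.120 and 0.0967), and without LPS replicate 1 or 2 (adjusted p = 0.0708 and 0.0802). On library totals alone the value was -1.08 (adjusted p = 0.000124), and measured from the median of all tested genes it was -0.29 by both scalings. Of the exonic bases of Fadd, 6.12% overlap Faddos on the opposite strand. Of its 50-base stretches, 6.95% also occur in other genes, of which Faddos, Tmem231 and Gm38319 share the most.

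The ubiquitin ligases, which are neighbours 11634 bases apart on chromosome 9, responded unequally. Birc3 (ENSMUSG00000032000, chr9:7848699-7873186, minus strand) held 68.2, 40.9, 65.2 and 38.1 CPM in vehicle and 304, 243, 299.99 and 243 CPM in LPS. Replicates 1 and 3 were the higher ones in both groups and the groups were far apart. The means were 53.1 ± 15.8 and 273 ± 34.2 CPM (SD, n = 4 each), and the log2 fold change was 2.36 (SE 0.21, adjusted p = 1.15e-05 by edgeR). Few 50-base stretches of the ligases also occur in other genes (7.56% of those of Birc3 and 1.49% of those of Birc2). The genes sharing the most were Gm7019, Birc2 and Gm43393 for Birc3, and Birc3, Gm7019 and Gm18700 for Birc2.

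Birc2 (ENSMUSG00000057367, chr9:7818227-7837064, minus strand) held 26.2, 27.0, 29.8 and 26.3 CPM in vehicle and 31.1, 37.2, 50.7 and 33.0 CPM in LPS, with a small gap between the groups and with LPS replicate 3 highest. The means were 27.3 ± 1.66 and 38.0 ± 8.84 CPM (SD, n = 4 each), and the log2 fold change was 0.48 (SE 0.15, 95% interval 0.13 to 0.82, adjusted p = 0.0206 by edgeR). The direction for Birc2 depended on the scaling, at 0.31 (adjusted p = 0.0566) with upper quartile factors and -0.22 (adjusted p = 0.109) on library totals alone. Measured from the median of all tested genes it was 0.59 by TMM and 0.57 by totals. Tmem123, on the far side of Birc2, fell (-1.09, adjusted p = 2.75e-05 by edgeR) and was looked up after the values were seen.

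**Figure D2:**
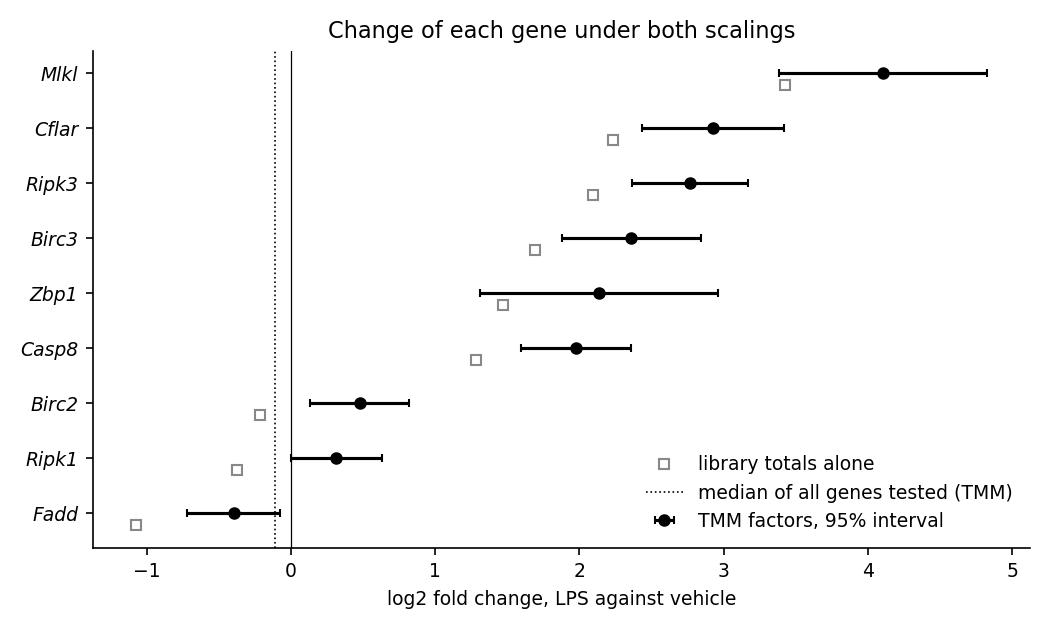
The log2 fold change (LPS against vehicle) of each member is plotted with its 95% interval from the edgeR fit, beside the value on library totals alone and the median of all tested genes. Mlkl (4.10) is the highest and Fadd (-0.40) the lowest, and Ripk1 and Birc2 change sign on library totals alone, to -0.37 and -0.22.

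Ratios of a pair of members within a library do not depend on how the libraries are scaled, so 4 ratios of counts that set partners or relatives against each other were compared. In each of the 4, every LPS library lay above every vehicle library, and each gave p = 0.0286 in a two-sided exact permutation test over the 70 divisions of the libraries (0.0286 also after adjustment over the 4), the smallest p that 4 against 4 allows. With the libraries paired by replicate number, an exact sign-flip test of 4 pairs cannot go below p = 0.125, which each ratio gave.

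The ratio of the brake Cflar to Casp8 was 1.88, 1.57, 1.70 and 1.42 in vehicle replicates 1 to 4 and 3.01, 3.11, 3.31 and 3.19 in LPS replicates 1 to 4. The LPS libraries lay close together, and the rise in the mean log2 ratio was 0.95, or 1.93-fold. Counts per gene grow with transcript length, so the ratio itself is no ratio of molecules, but its change is read within the same genes.

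The ratio of Birc3 to Birc2 went from 2.60, 1.51, 2.19 and 1.45 to 9.77, 6.54, 5.91 and 7.35, a 3.86-fold rise (1.95 on the log2 scale). Birc3 thus rose more than its neighbour in every library pair. The ratio of Ripk3 to its upstream kinase Ripk1 went from 0.067, 0.0923, 0.0983 and 0.0909 to 0.697, 0.440, 0.418 and 0.410, a 5.55-fold rise (2.47), with LPS replicate 1 standing above the other LPS libraries. The ratio of the executioner Mlkl to its kinase Ripk3 went from 2.11, 2.01, 2.75 and 1.29 to 4.16, 4.86, 6.32 and 5.94, a 2.66-fold rise (1.41), with LPS replicate 1 now the lowest of its group.

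**Figure D3:**
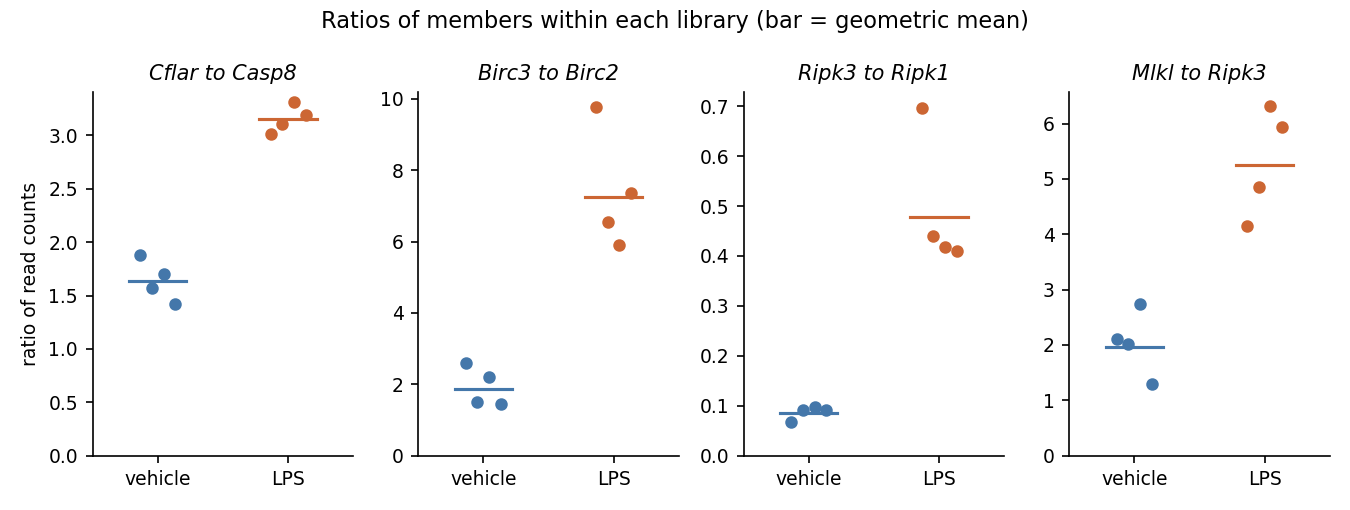
The 4 ratios of counts within a library are plotted for 4 vehicle and 4 LPS libraries. All LPS points lie above all vehicle points, and the LPS value of Ripk3 to Ripk1 in replicate 1 (0.697) stands apart from the other 3 (0.410 to 0.440).

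Levels of different genes were compared per length, in CPM per kilobase of exon. In vehicle the order was Zbp1 (33.0 ± 19.6), Casp8 (29.8 ± 3.32), Ripk1 (13.1 ± 1.04), Cflar (11.2 ± 1.95), Birc3 (10.6 ± 3.15), Mlkl (8.60 ± 3.92), Birc2 (5.96 ± 0.363), Ripk3 (4.14 ± 0.813) and Fadd (3.21 ± 0.221, SD, n = 4 each). Neighbours in this order overlapped in range over the libraries, except Casp8 over Ripk1 and Birc2 over Ripk3. The initiator caspase and the sensor thus stood at the top in vehicle, and the kinase Ripk3 and the adaptor Fadd at the bottom.

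In LPS the order was Mlkl (148 ± 31.9), Zbp1 (145 ± 19.2), Casp8 (117 ± 27.4), Cflar (85.0 ± 23.4), Birc3 (54.4 ± 6.83), Ripk3 (28.2 ± 4.86), Ripk1 (16.2 ± 3.11), Birc2 (8.30 ± 1.93) and Fadd (2.43 ± 0.395 CPM per kilobase, SD, n = 4 each). Mlkl, Zbp1, Casp8 and Cflar overlapped from neighbour to neighbour, and all later neighbours were separate. Mlkl moved from the 70.8th to the 97.4th percentile of tested genes, Cflar from 76.9 to 95.6 and Birc3 from 75.8 to 93.5, while Ripk1 stayed at 80.0 and 80.6 and Fadd at 47.1 and 43.5. Taking the longest transcript in place of all exons kept 12 of the 18 ranks. The lengths differed most for Cflar (12669 bases of exon, 6572 in the longest transcript) and Birc3 (5009 and 2909). With the longest transcript, Cflar and Birc3 stood above Ripk1 in vehicle, and Cflar stood above Zbp1 and Casp8 in LPS. The place of these genes in the orders above thus depends on the length taken.

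**Figure D4:**
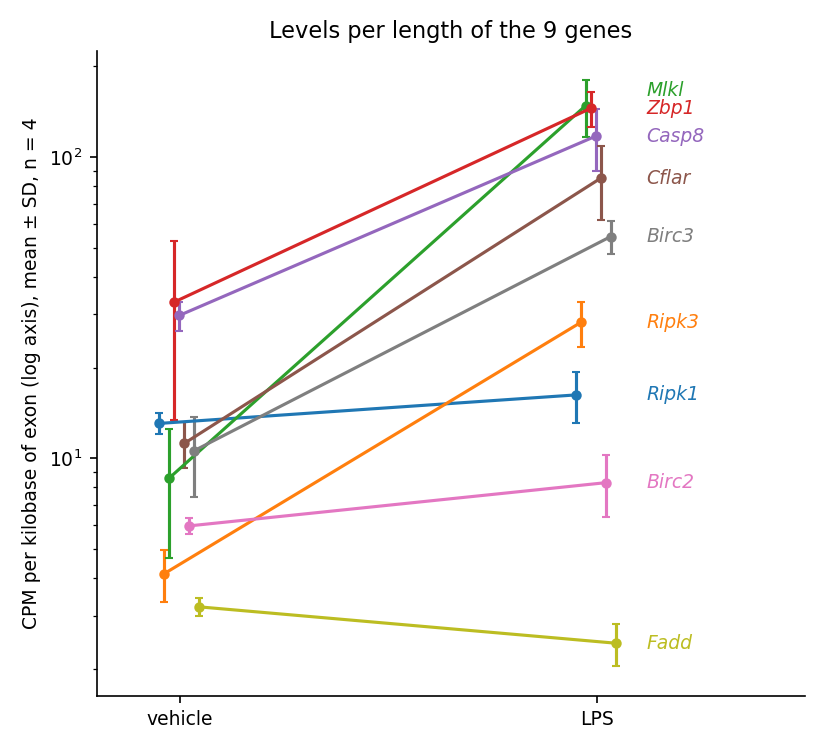
The per-length level of each member (CPM per kilobase of exon, log axis) is plotted for vehicle and LPS. Points are group means, bars are SD (n = 4 libraries each), and a line joins the groups. Mlkl passes from the middle of the vehicle order (8.60) to the top of the LPS order (148), where it overlaps Zbp1 (145).

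The members also varied within a group. Vehicle replicate 3 held the highest level of 8 of the 9 members by TMM, the exception being Birc3, and of 7 on library totals alone. LPS replicate 3 held the highest level of 6 members by TMM and of 5 on totals, and had the lowest TMM factor, 0.70. Summed oligodendrocyte precursor markers in vehicle replicates 1 to 4 were 92.6, 142, 27.5 and 135 CPM, lowest in replicate 3, and in LPS they were 139, 65.4, 63.8 and 63.8 CPM. Vehicle replicate 3 was also the lowest of its group in summed astrocyte (20.6 CPM), neuronal (14.8 CPM) and fibroblast and mural markers (5.80 CPM), and the highest in microglial (11529 CPM) and oligodendrocyte markers (205 CPM). Their part in the order of the libraries was not tested.

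The genes whose levels over the 8 libraries ran most like a member were taken from 8009 genes by Pearson correlation of log2 CPM, as a description with no test, since all 8 points share the split into groups. For Zbp1 they were Ifi47 (an interferon-inducible GTPase, r = 0.995), Mov10 (an RNA helicase, 0.994) and Pml (the scaffold of nuclear bodies, 0.993). For Mlkl they were the chemokine Ccl2 (0.999), the guanylate-binding protein Gbp5 (0.998) and D17Wsu92e (0.998). For Ripk3 they were Ccdc126 (0.999), Phyh (0.998) and Glipr2 (0.996), and for Casp8 they were Lims1 (1.000), Bfar (0.999) and Dnajb1 (0.999).

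The wider pathway was followed through a list of 57 other genes in 6 roles, of which 55 could be tested. Of these, 35 rose and 5 fell, with a median log2 fold change of 0.70, beside 30.3% and 33.8% of all tested genes and a median of -0.11. On library totals alone 22 were higher and 20 lower, beside 1988 higher and 8457 lower of all 13847 tested genes. The balance between rises and falls thus moved with the scaling in the list as in all tested genes. These all-gene counts also stand beside the totals counts of the roles below. The death ligands and receptors kept 6 higher and 1 lower, and the RHIM pathway inputs kept 3 higher and 1 lower.

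Of the 10 death ligands and receptors, 8 were tested, 6 rose and 1 fell (median 3.01). Tnf, the founding ligand, went from 32.1 ± 3.17 to 645 ± 180 CPM (log2 fold change 4.33, SE 0.23, adjusted p = 5.06e-07 by edgeR). Its main death receptor Tnfrsf1a rose less, from 160 ± 17.1 to 362 ± 39.8 CPM (1.17), than Tnfrsf1b, the receptor without a death domain, which went from 372 ± 78.8 to 7562 ± 794 CPM (4.35), though that difference was not tested. Fas, the receptor of Fas ligand, rose from 3.70 ± 2.01 to 53.9 ± 13.5 CPM (3.86), while Fasl itself had 0 counts in all 8 libraries, below the limit of 3 counts that a count of 0 allows.

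The lymphotoxin gene Lta had 0 to 1 counts per library in vehicle and 23 to 67 in LPS. With vehicle set to the floor of 3 counts per library, the LPS mean was at least 20.7-fold higher and the lowest LPS library at least 12.2-fold. Tnfsf10, which encodes TRAIL, rose from 20.01 ± 12.7 to 89.9 ± 39.4 CPM (2.17, adjusted p = 0.00192 by edgeR). Its receptor Tnfrsf10b stayed under 1.2 CPM and gave -0.03 (95% interval -0.84 to 0.77, adjusted p = 0.938 by edgeR), or 0.02 with DESeq2's size factors. Tnfrsf21, which encodes DR6, fell from 37.9 ± 9.52 to 19.5 ± 4.95 CPM (-0.96, adjusted p = 0.00331 by edgeR), and Tnfrsf25 had too few counts to test.

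Of the 19 receptor complex adaptors, ubiquitin ligases and kinases, 10 rose, 2 fell and 7 did not pass (median 0.41), while on library totals alone 7 were higher and 10 lower. Traf1, an adaptor that binds the cIAPs, rose from 2.01 ± 0.924 to 344 ± 66.4 CPM (7.41, SE 0.36), and Tank, a scaffold of the kinase Tbk1, from 52.6 ± 9.17 to 291 ± 85.2 CPM (2.47). The kinase Map3k7, which encodes TAK1, fell from 67.5 ± 1.87 to 48.9 ± 4.75 CPM (-0.46, adjusted p = 0.0017 by edgeR), and its partner Tab1 from 22.7 ± 2.58 to 11.6 ± 2.79 CPM (-0.97, adjusted p = 0.00129). Tab2 (0.41, adjusted p = 0.0331 by edgeR) and Tab3 (0.86, adjusted p = 0.0039), singled out after their values were seen, rose by TMM. By TMM, Map3k7 and Tab1 thus fell, while Tab2, Tab3 and the cIAP-binding adaptor rose. On library totals alone Map3k7 gave -1.15, Tab1 -1.63 and Traf1 6.74. The median of all tested genes shifted by -0.68 on totals, more than the rise of Tab2 by TMM, so that rise depends on the scaling.

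Of the 8 deubiquitinases and other brakes, 4 rose and 4 did not pass (median 0.35), while on library totals alone 3 were higher and 4 lower. Tnfaip3, which encodes the ubiquitin-editing enzyme A20, rose from 51.7 ± 5.00 to 1287 ± 121 CPM (4.64, SE 0.15), and its partner Tnip1 from 35.5 ± 8.82 to 423 ± 77.4 CPM (3.57). All 4 genes of the list named RHIM pathway inputs were called, 3 of them higher (median 1.20): Tlr3, the receptor of double-stranded RNA, went from 62.4 ± 17.3 to 336 ± 110 CPM (2.43) and its adaptor Ticam1 from 30.5 ± 3.36 to 70.4 ± 11.1 CPM (1.21). The third was Adar (1.19), singled out after its values were seen, with 16.8% of its exonic bases overlapping Chrnb2 on the opposite strand. The list does not sort genes that drive the pathway from genes that restrain it. Tlr4, the receptor of LPS, fell from 192 ± 11.9 to 85.0 ± 43.1 CPM (-1.17, adjusted p = 0.00487 by edgeR).

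Of the 8 genes of the executioner caspases and mitochondrial arm, 5 rose, 1 fell and 2 did not pass (median 0.71), while on library totals alone 2 were higher and 2 lower. With the libraries paired by number, Bid, which links caspase-8 to the mitochondria and was singled out after its values were seen, also passed (0.38, adjusted p = 0.0417 by edgeR, against 0.43 and adjusted p = 0.145 without pairing). Apaf1, the scaffold of the apoptosome, rose from 112 ± 7.11 to 306 ± 73.0 CPM (1.45). Htra2, a mitochondrial protease, fell from 30.6 ± 0.79 to 17.2 ± 3.33 CPM (-0.84), but 43.7% of its exonic bases overlap genes on the opposite strand. Of the 8 MLKL cofactors and ESCRT-III genes, whose products make inositol phosphates for MLKL or repair the membrane, 7 rose and 1 did not pass (median 0.55). With the libraries paired by number 6 rose, and Pdcd6ip, an ESCRT adaptor singled out after its values were seen, no longer passed (0.25, adjusted p = 0.0719 by edgeR, against 0.25 and adjusted p = 0.0394 without pairing). The largest rises in this role were those of Chmp2a, from 39.5 ± 1.66 to 102 ± 2.14 CPM (1.37), and Chmp4b, from 245 ± 37.5 to 463 ± 27.2 CPM (0.92, but 0.25 and adjusted p = 0.0851 on library totals alone). On totals alone only 1 of these 8 was higher and 2 were lower.

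**Figure D5:**
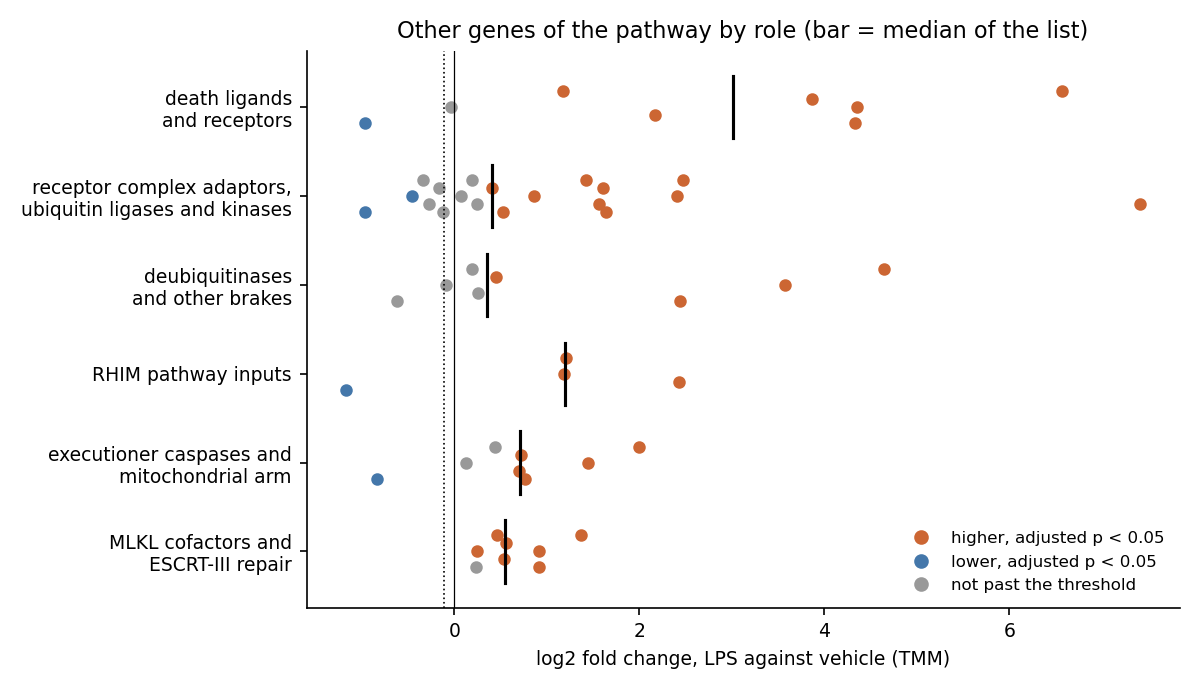
Each of the 55 tested pathway genes is a point at its log2 fold change (LPS against vehicle, TMM), in rows by role, coloured by its call at an adjusted p under 0.05, with a bar at each row's median and a dotted line at the median of all tested genes (-0.11). The row of death ligands and receptors has the highest median (3.01), and on library totals alone the 35 higher and 5 lower calls become 22 and 20. Those of all tested genes go from 4191 higher and 4686 lower to 1988 and 8457.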

How the data were processed

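Raw counts per Ensembl gene were deposited by the authors, who aligned reads to GRCm38 with GSNAP and counted uniquely aligned reads with HTSeqGenie, without normalization. The labels name a stranded kit and a NovaSeq, and the study's methods an unstranded TruSeq RNA kit and a HiSeq. Whether counting used strand is not given in the sources used here, so reads from opposite-strand overlaps cannot be told apart, and reads shared with overlapping or near-identical genes could be lost or misassigned. Symbols, positions and exon lengths came from GENCODE vM21 and promoters from RefSeq. All 8 columns were mapped by their labels.

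Counts were tested with edgeR 4.0.16 in R 4.3.3 (TMM, two-sided quasi-likelihood test, Benjamini-Hochberg over 13847 genes, threshold 0.05). Low counts were filtered by filterByExpr (minimum count 10, minimum total 15). DESeq2 1.42.0 gave an alternative. CPM values use TMM-scaled library sizes. Ratios had 0.5 added to each count. Remaining steps used scipy 1.17.1, pandas 2.3.3, numpy 2.4.6 and, for plots, matplotlib 3.10.9 under Python 3.11.15. Simulated data served to test the fits. Alternatives were other scalings and filters, stricter thresholds, a replicate block and leaving out each library. Library totals alone were added after seeing the data.

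The labels call the libraries biological replicates without saying which cultures they came from, so p-values measure the spread between these libraries. The main edgeR tests and the permutation tests of the ratios did not use the replicate numbers. In the replicate block and the sign-flip tests the numbers were taken to pair the samples. Libraries with the same number deviated together from their group means (r = 0.373, 0.196, 0.171 and 0.108 over 8010 genes for numbers 1 to 4). Vehicle replicate 2 with LPS replicate 4 (r = 0.146) and vehicle replicate 4 with LPS replicate 2 (r = 0.137) exceeded the value of number 4. The correlations thus do not single out the partner of number 4. All other pairs of unlike number gave r of -0.210 to 0.001. No library duplicated another, but replicates 2 and 4 were the closest libraries in both groups. Their counts differed by a chi-squared per degree of freedom of 6.45 in LPS and 10.1 in vehicle. Other pairs within a group gave 54.9 to 140 in LPS and 32.8 to 60.8 in vehicle. Whether replicates 2 and 4 share a source is not given, and its part in the p-values was not tested.

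The members, the pathway and marker lists and the tests were chosen with earlier results of these data known. Named genes are all members, every death ligand and receptor, the 2 largest rises and falls called in each role, the 3 genes most like Zbp1, Mlkl, Ripk3 and Casp8 (mean log2 CPM 3 or more), and genes overlapping a member. One gene that this rule names is counted in its role but is not reported singly here. Limits from counts cover counting error only.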

Additional observations from a re-analysis of the deposited data

Results flagged for a closer look

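In a group of 4 libraries, a library was singled out where its gap to the nearest other library, as a share of the range of the group, passed Dixon's 95% critical value. Of 26 groups tested, 2 did so, and chance gives about 1 in 20. Mlkl in LPS was 450 CPM in replicate 3 against 293 to 316 CPM in the other 3 libraries (share 0.849). The log2 ratio of Ripk3 to Ripk1 in LPS was -0.52 in replicate 1 against -1.29 to -1.19 in the other 3 (share 0.870). Without LPS replicate 3 the log2 fold change of Mlkl was 3.95. Over all libraries left out in turn, the difference of the Ripk3 to Ripk1 ratio stayed between 2.29 and 2.55.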

How the results depend on the processing

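Ripk3, Mlkl, Zbp1, Casp8, Cflar and Birc3 kept their direction and their call in all alternatives that scaled, filtered, blocked or left out a library, with log2 fold changes on library totals alone of 2.09, 3.43, 1.47, 1.28, 2.23 and 1.69. Over the 14 of these other than library totals, Mlkl ranged from 3.94 to 4.51 and Zbp1 from 1.94 to 2.64. On library totals alone Ripk1 turned to -0.37 and Birc2 to -0.22, 2 members were lower, 22 pathway genes were higher and 20 lower, and 1988 genes were higher and 8457 lower. With a log2 fold change of at least 1 also required, 22 pathway genes were higher and 1 lower, and 2224 genes were higher and 2998 lower. The count of members lower was 0 with that requirement, with DESeq2, with its size factors in edgeR, with no filter and at an adjusted p under 0.01, and 0 to 1 with libraries left out in turn. Tnfrsf10b turned to 0.017 with DESeq2 and 0.019 with its size factors, and ranged from -0.30 to 0.17 with libraries left out.

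With the replicate block, the ratio differences stayed at 0.95, 1.95, 2.47 and 1.41 (Cflar to Casp8, Birc3 to Birc2, Ripk3 to Ripk1, Mlkl to Ripk3), but the exact sign-flip test of the pairs gave p = 0.125, the smallest it can give. The block changed no other call among the members and the genes named by rule. In the pathway it added Bid and lost Pdcd6ip. Leaving out libraries gave ranges of 0.88 to 1.01, 1.81 to 2.10, 2.29 to 2.55 and 1.21 to 1.57. Tnfrsf10b, at under 1.2 CPM, and Lta, at up to 67 counts, rest on few counts. The cause of these dependences was not tested.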
